A study of Homo sapiens with 24 samples.

Results

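The genes described are 43 genes of the autophagy machinery, taken from a list of core autophagy genes and cargo receptors and matched by Ensembl identifier among the 60279 genes counted in each library. Each of the 43 matched exactly 1 identifier, and all 43 had a mean of at least 5 counts per library and were tested. They were divided by role into an initiation kinase complex of 6 genes, a PI3-kinase complex of 7, membrane supply and expansion with 7, the conjugation system with 15, cargo receptors with 5, and a last group of 3 genes for maturation and related steps.

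Macroautophagy encloses cytoplasm in a double membrane, the autophagosome, and delivers it to the lysosome for degradation. The ULK kinase complex starts the process when nutrient signalling through mTORC1 falls, a lipid kinase complex around Beclin 1 marks the site of membrane growth, and linked ubiquitin-like conjugation reactions attach proteins of the ATG8 family (the LC3 and GABARAP proteins) to lipid. Cargo receptors bind ATG8 proteins on one side and ubiquitinated cargo on the other. TFE3 belongs to the MiT/TFE family of transcription factors, whose members TFEB and TFE3 are known for switching on lysosomal and autophagy genes.

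RNA was sequenced from SW872 cells, a human liposarcoma line, in 24 libraries that formed 8 groups of 3. Stable lines carried a retroviral vector that was empty (EV) or encoded the TAZ-CAMTA1 fusion, the TAZ4SA mutant of TAZ, full-length CAMTA1, the YAP-TFE3 fusion, the YAP5SA mutant of YAP or full-length TFE3, and a last group, EVsub, held empty-vector cells at sub-confluent density. TAZ4SA and YAP5SA carry serine-to-alanine changes at sites through which the Hippo kinases restrain TAZ and YAP. The lines were drug-selected pools of transduced cells. EV and the constructs other than CAMTA1 were collected after 48 hours at confluence. CAMTA1, like EVsub, was collected below confluence and was compared with EVsub. Every other construct was compared with confluent EV, so those comparisons share their control libraries.

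Library totals ran from 19700277 to 35287476 counts, and the 43 genes together took 0.273% to 0.429% of them. YAP-TFE3 replicate 3 stood apart, with a root-mean-square log2 distance of 0.494 from the mean of its group's other libraries against 0.309 to 0.446 in the other 23 libraries, and calls against EV and TFE3 that were lost without it are named below, while none against YAP5SA was lost. TFE3 transcripts measured 119 ± 10.1 CPM (a count scaled to a common library size, written CPM throughout; mean ± SD, n = 3) in EV, 283 ± 49.6 in YAP-TFE3 and 336 ± 19.2 in TFE3, where endogenous and introduced transcripts were counted together. WWTR1, the gene of TAZ, was lower in the libraries labelled TAZ4SA (134 ± 0.538 CPM) than in EV (204 ± 20.3 CPM), opposite to what an added transcript alone would give. Endogenous and introduced transcripts are counted together here too, so the label could not be checked from this gene. The paper shows a western blot for Flag-tagged TAZ4SA in SW872 cells. Directions drawn from that group are directions in the libraries so labelled. Summed over 7 mesenchymal markers, the level was 6572 to 7648 CPM in EV, 6993 to 7739 CPM in YAP-TFE3, 2879.7 to 4167 CPM in TAZ4SA and 3161 to 5367 CPM in YAP5SA, while ADIPOQ, the defining secreted protein of adipocytes, was at 0 in every library. All 6 adipocyte markers together summed to 148.7 to 223 CPM in EV, 304 to 369.6 CPM in YAP-TFE3, 64.2 to 74.4 CPM in TAZ4SA and 118 to 132 CPM in YAP5SA. Mesenchymal markers summed to 4654 to 4744 CPM in EVsub, and 4 endothelial markers to 68.7 to 93.1 CPM in EV and 22.5 to 32.05 CPM in YAP5SA. The part of these differences in the results below was not tested. Because the libraries were bulk RNA, a change in every cell and a change in some of the cells cannot be told apart.

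In EV cells the most abundant members per kilobase of transcript were ATG8 genes and a receptor. GABARAPL2 led with 86.6 ± 5.29 CPM per kilobase (SD, n = 3), followed by MAP1LC3B with 65.3 ± 5.13 and TAX1BP1 with 64.1 ± 6.45, and the MAP1LC3B and TAX1BP1 levels lay within 1 SD of each other. At the low end stood ATG9B, a scramblase of ATG9 vesicles with 0.801 ± 0.388 CPM per kilobase, GABARAP with 1.06 ± 0.309, and the kinase ULK2 with 2.16 ± 0.0648. The low GABARAP value carries a caution: 52.4% of its exon bases lie under another gene on the same strand, and the methods, which name both Hisat2 and Salmon, do not say by which route reads there were assigned in the deposited counts.

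In YAP-TFE3 cells, 22 of the 43 genes were higher and 2 were lower than in EV (edgeR quasi-likelihood test, Benjamini-Hochberg adjusted p below 0.05), whereas 48.2% of all 19997 genes tested were called, 25.6% higher and 22.6% lower. The median log2 fold change of the 43 genes was 0.24, against -0.01 for all genes tested. The 6 genes that rose by more than 1 on the log2 scale were the ATG8 proteins GABARAPL1 and MAP1LC3B, the receptors OPTN and SQSTM1, the membrane protein WIPI1 and the initiation scaffold RB1CC1. When libraries were scaled by total counts alone, the median of all genes tested shifted by -0.0853 and the split became 16 higher and 4 lower. Over all 19997 genes that scaling called 4319 higher and 5538 lower. In a fit of the YAP-TFE3 and EV libraries alone the split was 15 higher and 1 lower, with 4484 of 20296 genes higher and 3696 lower. Without YAP-TFE3 replicate 3 there were 20 higher and 4 lower: ULK2, ATG2A (0.24) and ATG4A (0.18) lost their calls, WDR45 (0.26) was called higher, and PIK3R4 (-0.34) and GABARAP (-1.04) were called lower. Differences given below without a unit are log2 fold changes from the edgeR fit.

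**Figure D1:**
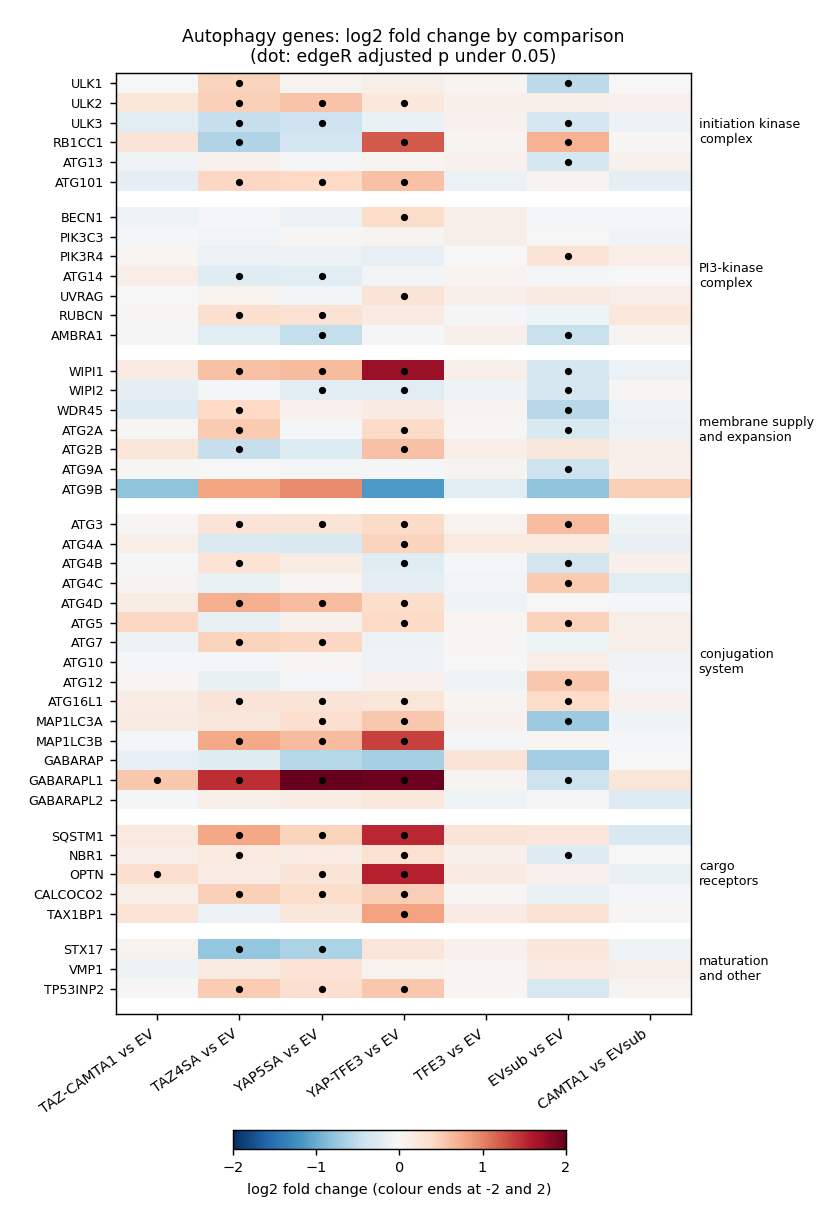
Log2 fold change of each of the 43 autophagy genes (rows, grouped by role) in each comparison against a control (columns), with a dot on genes called at an edgeR adjusted p below 0.05. YAP-TFE3 against EV holds 22 higher and 2 lower genes, while TFE3 against EV and CAMTA1 against EVsub hold none.

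GABARAPL1 (ENSG00000139112, chromosome 12, 10212458 to 10223128, plus strand; coordinates here and below are GRCh38), an ATG8 protein of the GABARAP branch, measured 41.9, 44.2 and 43.2 CPM in the EV libraries and 172, 181 and 149.9 CPM in the YAP-TFE3 libraries. The groups did not overlap, and the difference was the largest among the 43 genes in this comparison (log2 fold change 1.96 with SE 0.09, edgeR adjusted p = 3.94e-14). MAP1LC3B (ENSG00000140941, chromosome 16, 87383953 to 87404779, plus strand), the LC3 protein most used as an autophagosome marker, measured 130.1, 139 and 152 CPM in EV and 380.1, 397 and 310.3 CPM in YAP-TFE3. Every YAP-TFE3 library lay above every EV library (log2 fold change 1.37 with SE 0.09, edgeR adjusted p = 1.81e-11), though 6.38% of the 75-base windows of its transcript also occur in other genes, among which reads could be split. MAP1LC3A, its paralog, rose less, from 38.4 ± 4.36 to 55.7 ± 5.65 CPM (log2 fold change 0.54 with SE 0.11, edgeR adjusted p = 0.000326). The remaining ATG8 genes did not pass the test: GABARAPL2 differed by 0.21 (edgeR adjusted p = 0.0691) and GABARAP by -0.67 (edgeR adjusted p = 0.0568).

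All 5 cargo receptors were higher in YAP-TFE3 than in EV, with a median log2 fold change of 0.80. OPTN (ENSG00000123240, chromosome 10, 13099449 to 13138308, plus strand), optineurin, a receptor for damaged mitochondria and bacteria, measured 61.9, 68.2 and 71.4 CPM in EV and 211, 207 and 174 CPM in YAP-TFE3. The lowest YAP-TFE3 library was well above the highest EV library (log2 fold change 1.55 with SE 0.08, edgeR adjusted p = 8.75e-14). SQSTM1 (ENSG00000161011, chromosome 5, 179806398 to 179838078, plus strand), the p62 receptor of ubiquitinated protein aggregates, measured 101, 111 and 139 CPM in EV and 333, 377 and 288 CPM in YAP-TFE3. These groups were also separate (log2 fold change 1.51 with SE 0.12, edgeR adjusted p = 2.19e-10), with the caution that 55.7% of the exon bases of SQSTM1 lie opposite exons of other genes and the libraries, though made with a stranded kit, were counted with a strand setting that is not stated for the deposited values. The same holds for 42.9% of the exon bases of ATG101, 37.7% of BECN1, 29.9% of ATG7 and 28.3% of WIPI1. TAX1BP1 (ENSG00000106052, chromosome 7, 27739331 to 27844564, plus strand), a ubiquitin-binding receptor, ranged over 474, 365 and 312 CPM in YAP-TFE3 against 242, 219 and 198 CPM in EV, again without overlap (log2 fold change 0.80 with SE 0.13, edgeR adjusted p = 1.47e-05). CALCOCO2 (NDP52, a receptor in the autophagy of bacteria) and NBR1 (an aggregate receptor related to p62) rose by smaller amounts, 0.49 (SE 0.07, edgeR adjusted p = 3.47e-06) and 0.31 (SE 0.07, edgeR adjusted p = 0.0011).

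Initiation genes were mixed, with 3 of 6 higher and none lower. RB1CC1 (ENSG00000023287, chromosome 8, 52622458 to 52745843, minus strand), also called FIP200, the large scaffold of the ULK complex, measured 75.5, 56.3 and 62.8 CPM in EV and 223, 135 and 94.9 CPM in YAP-TFE3. The YAP-TFE3 libraries were all higher than the EV libraries but differed among themselves more than for any gene named above (log2 fold change 1.22 with SE 0.24, edgeR adjusted p = 0.000221), and leaving out 1 library at a time gave log2 fold changes of 0.82 to 1.46 with the call kept. ATG101, a partner of ATG13 in that complex, rose by 0.59 (SE 0.13, edgeR adjusted p = 0.00047). ULK2, a kinase of the complex, was called at 0.21, and its call was lost in 5 of 6 fits that left out a library. The main kinase ULK1 (0.11), its relative ULK3 (-0.13) and the adaptor ATG13 (0.05) did not pass the test.

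The lipid kinase complex had the lowest median of the roles, 0.06, with 2 of 7 genes higher. BECN1, Beclin 1, measured 53.5, 51.4 and 57.2 CPM in EV and 67.2, 71.1 and 71.9 CPM in YAP-TFE3, with no overlap and a small difference (log2 fold change 0.37 with SE 0.07, edgeR adjusted p = 0.000185). UVRAG, a Beclin 1 partner in endosomal traffic, was called at 0.25, a call lost without YAP-TFE3 replicate 1. PIK3C3, the lipid kinase itself, its regulatory subunit PIK3R4, the targeting subunit ATG14, the inhibitor RUBCN and the scaffold AMBRA1 lay between -0.17 and 0.17 and did not pass the test.

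Among the 7 membrane genes, 3 were higher and 1 lower. WIPI1 (ENSG00000070540, chromosome 17, 68420948 to 68457513, minus strand), which reads the lipid mark made by the PI3-kinase complex, measured 20.9, 23.99 and 26.8 CPM in EV and 76.2, 77.6 and 82.04 CPM in YAP-TFE3, with the groups far apart (log2 fold change 1.72 with SE 0.11, edgeR adjusted p = 7.47e-12). Its relative WIPI2, which recruits the conjugation machinery, moved the other way, from 135, 148 and 162 CPM in EV to 121, 132 and 134 CPM in YAP-TFE3. That difference was small (log2 fold change -0.21 with SE 0.08, edgeR adjusted p = 0.0494) and its call was lost in 4 of 6 fits that left out a library. The lipid transfer protein ATG2B (ENSG00000066739, chromosome 14, 96279195 to 96363341, minus strand) rose by 0.58 (SE 0.12, edgeR adjusted p = 0.000298), and its paralog ATG2A by 0.39 (SE 0.11, edgeR adjusted p = 0.00605), with the ATG2A call lost without YAP-TFE3 replicate 3. WDR45 (0.16), ATG9A (-0.03) and ATG9B (-1.15) did not pass the test.

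Of the 10 conjugation genes outside the ATG8 family, 5 were higher, 1 was lower and the median was 0.16. ATG3 (ENSG00000144848, chromosome 3, 112532510 to 112562046, minus strand), the E2-like enzyme that joins ATG8 proteins to lipid, measured 33.1, 32.4 and 31.4 CPM in EV and 45.5, 41.4 and 39.1 CPM in YAP-TFE3, without overlap (log2 fold change 0.38 with SE 0.09, edgeR adjusted p = 0.0014). ATG5 and ATG16L1, parts of the complex that directs ATG3, and the ATG8 proteases ATG4A and ATG4D rose by 0.38, 0.24, 0.44 and 0.35, and each of these 4 calls was lost in 2 of 6 fits that left out a library. ATG4B, the most active of these proteases, was lower (log2 fold change -0.24 with SE 0.10, edgeR adjusted p = 0.0423), with the call lost in 4 of 6 such fits. With total-count scaling these 10 genes split into 1 higher and 1 lower. ATG7, the E1-like enzyme, its E2-like partner ATG10, the ubiquitin-like protein ATG12 and the protease ATG4C did not pass the test in this comparison.

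**Figure D2:**
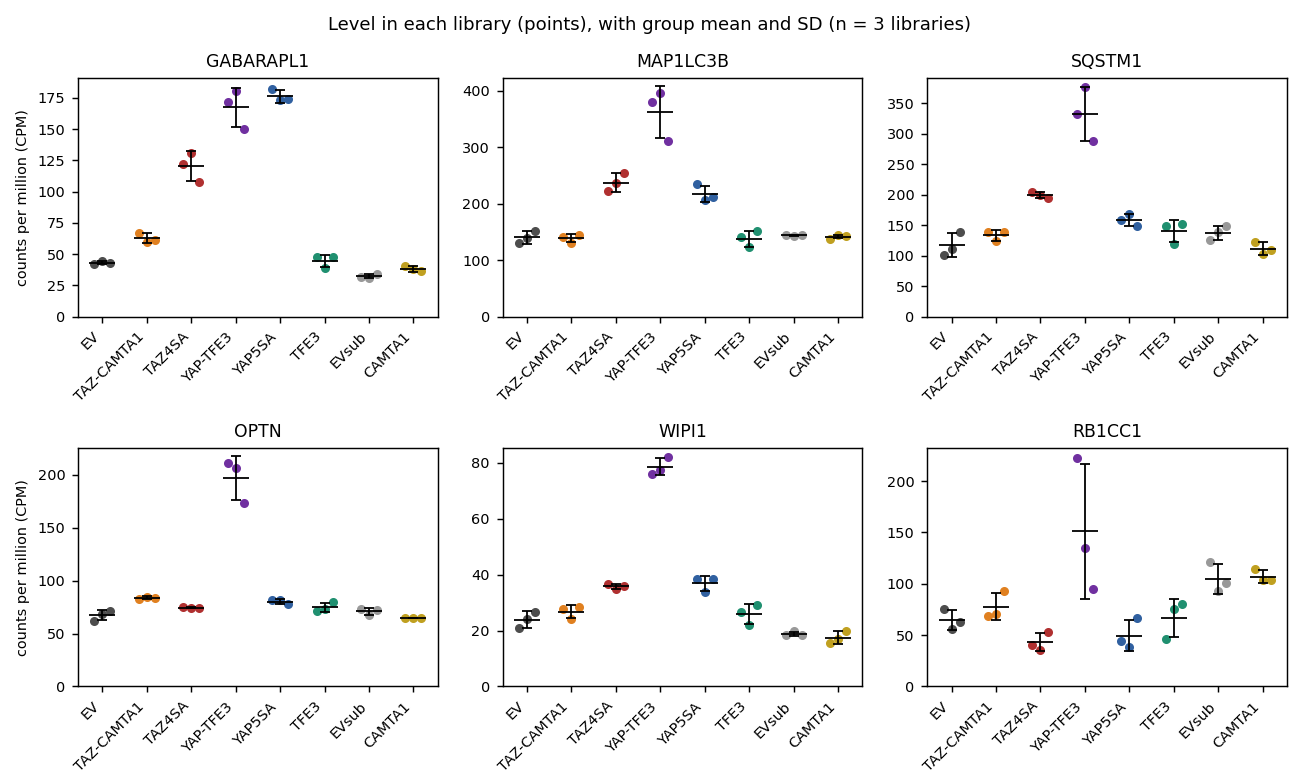
Level in CPM in each of the 24 libraries for the 6 genes that rose by more than 1 on the log2 scale in YAP-TFE3, by group; points are single libraries, and bars mark the group mean and SD (n = 3), on axes that start at 0. All 3 YAP-TFE3 libraries lie above every EV library in each panel, GABARAPL1 is as high in YAP5SA, and RB1CC1 has the widest spread within YAP-TFE3.

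The sequences just upstream of genes that rose together in YAP-TFE3 cells are shown because the fusion joins a TEAD-binding protein to a factor that binds E-box DNA. RefSeq annotation of GRCh38.p14 gave 50 start sites for 38 of the 43 genes, and the 250 bases before each start were searched for CACGTG, an E-box that reads alike on both strands, and for GGAATG or its reverse complement CATTCC, the core of the TEAD motif. CACGTG was found before 3 of 50 starts (6%), those of ULK3, ATG3 and ATG14, against 6.34% of 35116 starts of all genes. GGAATG on either strand was found before 8 of 50 (16%) against 11.9% of all starts, and the longer palindrome TCACGTGA before 0 of 50 against 0.854%. Shown are the leading riser of each of 3 roles, then the carriers of CACGTG with the best and the least YAP-TFE3 response among them, ATG3 (called higher) and ULK3 (not called). They lie at chr12:10212627-10212876, plus strand (GABARAPL1), chr17:68457497-68457746, minus strand (WIPI1), chr10:13099832-13100081, plus strand (OPTN, first start), chr3:112561963-112562212, minus strand (ATG3) and chr15:74843157-74843406, minus strand (ULK3), run 5′ to 3′ on the gene's strand, and carry a found motif in capitals.
GABARAPL1: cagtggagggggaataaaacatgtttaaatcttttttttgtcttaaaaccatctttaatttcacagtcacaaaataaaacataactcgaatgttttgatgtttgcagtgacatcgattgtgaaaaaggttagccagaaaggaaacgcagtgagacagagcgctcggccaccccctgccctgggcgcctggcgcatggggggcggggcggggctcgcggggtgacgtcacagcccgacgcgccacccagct
WIPI1: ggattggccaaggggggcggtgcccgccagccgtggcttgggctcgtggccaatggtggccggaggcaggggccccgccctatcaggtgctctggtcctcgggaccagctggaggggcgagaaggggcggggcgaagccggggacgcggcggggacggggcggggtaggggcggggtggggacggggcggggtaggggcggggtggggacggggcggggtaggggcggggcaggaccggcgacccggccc
OPTN: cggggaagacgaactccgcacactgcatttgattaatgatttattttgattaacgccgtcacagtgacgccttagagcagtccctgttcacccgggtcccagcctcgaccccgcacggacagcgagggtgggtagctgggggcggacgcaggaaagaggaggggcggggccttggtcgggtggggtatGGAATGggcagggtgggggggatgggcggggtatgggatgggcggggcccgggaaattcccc
ATG3: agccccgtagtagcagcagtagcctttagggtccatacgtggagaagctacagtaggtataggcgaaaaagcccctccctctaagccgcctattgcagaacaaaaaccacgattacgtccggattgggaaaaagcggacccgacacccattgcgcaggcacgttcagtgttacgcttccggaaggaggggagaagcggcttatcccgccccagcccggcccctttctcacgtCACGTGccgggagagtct
ULK3: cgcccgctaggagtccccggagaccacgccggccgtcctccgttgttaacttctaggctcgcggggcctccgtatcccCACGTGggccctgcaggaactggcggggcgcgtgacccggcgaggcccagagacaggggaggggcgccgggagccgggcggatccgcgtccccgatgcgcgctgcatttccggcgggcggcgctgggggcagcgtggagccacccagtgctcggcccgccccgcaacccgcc
GABARAPL1 and WIPI1 held none of the searched letters in this window, and OPTN held the TEAD core. A match is a run of letters and not evidence of binding, and the lack of a match says only that these letters are not in this window.

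Against YAP5SA, 14 genes were higher in YAP-TFE3 and 4 were lower, with 52.4% of all genes called, 28.1% higher and 24.3% lower. Against TFE3, 20 were higher and 2 lower, with 48% of all genes called, 25.4% higher and 22.5% lower. Scaled by total counts, 21 genes were higher and 4 lower than in YAP5SA, and 14 higher and 9 lower than in TFE3. Over all genes that scaling called 6562 higher and 4044 lower against YAP5SA, and 4221 and 5702 against TFE3. The YAP5SA count rose to 22 higher and 9 lower with GC-content offsets, and the TFE3 count fell to 13 higher and 1 lower when only those libraries were fitted. For genes called jointly in several comparisons, here and below, the share of all genes with the same pattern was not computed. Higher than in EV, YAP5SA and TFE3 alike were 9 genes, namely RB1CC1, BECN1, WIPI1, ATG2A, ATG2B, MAP1LC3B, SQSTM1, OPTN and TAX1BP1. Of these calls against TFE3, that of BECN1 was lost with total-count scaling, without the low-count filter and when only the compared libraries were fitted, and that of ATG2A without YAP-TFE3 replicate 3 (0.22, edgeR adjusted p = 0.0877), as were those of RUBCN, NBR1 and GABARAPL2, which are not among the 9. OPTN measured 81.5, 81.5 and 77.6 CPM in YAP5SA and 71.4, 73.4 and 79.9 CPM in TFE3, both far below the YAP-TFE3 libraries given above. The difference was 1.30 (SE 0.08, edgeR adjusted p = 1.51e-12) against YAP5SA and 1.40 (SE 0.08, edgeR adjusted p = 5.65e-13) against TFE3. On the log2 scale WIPI1 was 1.09 higher than in YAP5SA (edgeR adjusted p = 9.05e-09) and RB1CC1 1.61 higher (edgeR adjusted p = 7.74e-06). GABARAPL1 behaved differently: its YAP5SA libraries, 182, 173 and 174 CPM, overlapped those of YAP-TFE3 (log2 fold change -0.08 with SE 0.09, edgeR adjusted p = 0.505). Lower in YAP-TFE3 than in YAP5SA were ATG7 (-0.51), ATG4B (-0.39), ULK2 (-0.36) and the thinly counted ATG9B (-2.09). Against TFE3, the lower genes were ULK3 (-0.22) and GABARAP (-0.91), whose calls were lost in 3 and 2 of 6 fits that left out a library.

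In the libraries labelled TAZ4SA, 18 of the 43 genes were higher and 5 lower than in EV, where 49.2% of all genes were called, 25.1% higher and 24.2% lower. In YAP5SA, 15 were higher and 5 lower, where 44.3% were called, 22.7% higher and 21.6% lower. These splits depended on scaling: with total counts alone the median of all genes shifted by -0.198 and -0.185. The splits became 10 higher and 14 lower for TAZ4SA and 6 higher and 13 lower for YAP5SA. Over all 19997 genes that scaling called 3355 higher and 7318 lower in TAZ4SA, and 3135 and 6840 in YAP5SA. The directions of small differences thus hold only relative to the other genes. The number called in YAP5SA also fell from 20 to 13, with 9 higher and 4 lower, when EV replicate 1 was left out. Higher in both groups were 13 genes, and 11 of these were also higher in YAP-TFE3. These comparisons share the EV libraries, and the overlap over all genes was not computed, so these counts have no baseline.

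GABARAPL1 was the leading gene of both groups and the only called member to pass 1 on the log2 scale in either. It measured 122, 131 and 107 CPM in TAZ4SA, where every library was above EV (log2 fold change 1.48 with SE 0.09, edgeR adjusted p = 5.15e-12), and it was higher still in YAP5SA (log2 fold change 2.03 with SE 0.09, edgeR adjusted p = 2.33e-14). MAP1LC3B followed, at 222, 236 and 254 CPM in TAZ4SA and 234, 207 and 212 CPM in YAP5SA. Its libraries were all above those of EV and below those of YAP-TFE3 (log2 fold changes 0.76 and 0.63, edgeR adjusted p = 2.93e-07 and 4.63e-06). ATG4D (ENSG00000130734, chromosome 19, 10543895 to 10553418, plus strand), an ATG4 protease, rose from 10.6 ± 0.986 CPM in EV to 17.6 ± 0.32 in TAZ4SA and 16.3 ± 1.17 in YAP5SA (log2 fold changes 0.73 and 0.62, edgeR adjusted p = 1.58e-05 and 0.000145). WIPI1 rose by 0.59 and 0.63 (edgeR adjusted p = 0.000102 and 5.23e-05), and SQSTM1 by 0.77 and 0.44 (edgeR adjusted p = 7.66e-06 and 0.00343), the SQSTM1 call in YAP5SA being lost with total-count scaling. ULK2 rose by 0.47 and 0.57, while ULK1, its better known relative, was called in TAZ4SA (0.45, edgeR adjusted p = 0.00114, lost with total-count scaling) and had a difference of 0.05 in YAP5SA (edgeR adjusted p = 0.751). ATG7 and RUBCN rose in both groups and were not called in YAP-TFE3, with both RUBCN calls lost with total-count scaling. ATG7 measured 46.02, 46.5 and 44.7 CPM in TAZ4SA, 46.8, 45.4 and 41.01 CPM in YAP5SA and 29.1, 30.3 and 34.3 CPM in YAP-TFE3, against 30.1, 34.2 and 36.1 CPM in EV.

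Lower in both TAZ4SA and YAP5SA were ULK3, ATG14 and STX17. STX17 (ENSG00000136874, chromosome 9, 99906654 to 99974534, plus strand), the SNARE that fuses the finished autophagosome with the lysosome, measured 26.1, 25.7 and 26.02 CPM in EV, 13.1, 14.1 and 18.2 CPM in TAZ4SA and 14.2, 14.2 and 21.8 CPM in YAP5SA. Neither group overlapped with EV, and the log2 fold changes were -0.78 (SE 0.15, edgeR adjusted p = 0.000188) and -0.63 (SE 0.15, edgeR adjusted p = 0.00167). ULK3 fell to 43.6 ± 1.66 and 44.8 ± 0.2 CPM from 60.1 ± 6.56 CPM (log2 fold changes -0.46 and -0.42). ATG14 differed by -0.24 and -0.23, and both calls were lost without EV replicate 1. AMBRA1 was lower in YAP5SA (-0.48, edgeR adjusted p = 0.000597). RB1CC1 and ATG2B were lower in TAZ4SA (-0.60 and -0.46) and higher in YAP-TFE3. The RB1CC1 call in TAZ4SA (edgeR adjusted p = 0.0484) was lost in 4 of 6 fits that left out a library and with GC-content offsets, while the ATG2B call (edgeR adjusted p = 0.00319) was kept in all 6.

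In TAZ-CAMTA1 cells, 2 of the 43 genes were higher than in EV and none was lower, where 4.98% of all genes were called, 3.55% higher and 1.44% lower. GABARAPL1 measured 67.1, 59.7 and 61.1 CPM, above every EV library (log2 fold change 0.54 with SE 0.09, edgeR adjusted p = 0.000504), and the call was kept in each fit that left out a library. OPTN measured 82.2, 84.99 and 83.9 CPM (log2 fold change 0.32 with SE 0.08, edgeR adjusted p = 0.0135), with no overlap with EV, but its call was lost without EV replicate 1 or without TAZ-CAMTA1 replicate 2. DESeq2 called 3 of the 43 here. At an unadjusted p below 0.05 there were 8, of which 5 were higher and 3 lower. Over all genes there were 3574 of 19997, a similar share. ATG5 missed the threshold with 0.41 (edgeR adjusted p = 0.0592).

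Directly compared with TAZ4SA, TAZ-CAMTA1 cells had 8 genes higher and 18 lower, where 53.7% of all genes were called, 26.9% higher and 26.8% lower. Total-count scaling turned this split to 14 higher and 9 lower, and over all genes it called 7486 higher and 3695 lower. ATG9B, with few counts, had the lowest value (-1.60, edgeR adjusted p = 0.0139), a call lost in 2 of 6 fits that left out a library. Of the members with a mean of at least 100 counts, those lower by the most were GABARAPL1 (-0.94, SE 0.09, edgeR adjusted p = 8.1e-09), MAP1LC3B (-0.78, edgeR adjusted p = 1.94e-07), WDR45, a WIPI family protein (-0.66, edgeR adjusted p = 1.39e-05), and ATG101 (-0.61, edgeR adjusted p = 0.000316). WDR45 measured 49.5, 43.98 and 42.3 CPM in TAZ-CAMTA1 and 73.5, 75.7 and 65.3 CPM in TAZ4SA, which did not overlap. Higher by the most were STX17 (0.85, edgeR adjusted p = 5.3e-05), RB1CC1 (0.85, edgeR adjusted p = 0.00517) and ATG2B (0.70, edgeR adjusted p = 3.58e-05). The STX17 libraries of TAZ-CAMTA1, 26.1, 27.01 and 28.9 CPM, lay near those of EV. RB1CC1 lost its call with GC-content offsets.

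No member was called between TFE3 and EV, where 0.035% of all genes were called by edgeR, and DESeq2 called none of the 43 either. At an unadjusted p below 0.05 there was 1 member, SQSTM1 (0.26), against 757 of all 19997 genes, a share no higher than over all genes. The median of the 43 was 0.05. GABARAPL1 measured 47.4, 38.8 and 47.6 CPM and MAP1LC3B 141, 123 and 151 CPM in TFE3, both overlapping EV. No member was called between CAMTA1 and EVsub either, where edgeR called 1.83% of all genes, 1.26% higher and 0.57% lower. DESeq2 also called 0 of the 43. An unadjusted p below 0.05 was reached by 4 members and by 2474 of all 19997 genes, so the members' share was no higher. The 4 were RUBCN (0.21) and GABARAPL1 (0.24), higher, and GABARAPL2 (-0.26) and SQSTM1 (-0.30), lower.

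Cell density was compared with the construct held at the empty vector. In EVsub, 7 genes were higher and 13 lower than in confluent EV, where 36.8% of all genes were called, 19.8% higher and 17.1% lower. With total-count scaling the split was 4 higher and 16 lower, and 3109 of all genes were called higher and 4286 lower. Among the membrane genes 5 of 7 were lower, and among the conjugation genes outside the ATG8 family 5 of 10 were higher. Of these membrane calls, that of ATG2A was lost in 5 of 6 fits that left out a library and that of WIPI1 in 3 of 6. With GC-content offsets ATG2A lost its call, and so did ATG4C, ATG5 and ATG12 among the higher conjugation genes. MAP1LC3A measured 34.7, 37.3 and 43.2 CPM in EV and 20.6, 23.6 and 25.7 CPM in EVsub. It was lower in every sub-confluent library (log2 fold change -0.72 with SE 0.11, edgeR adjusted p = 5.12e-05). WDR45 (-0.56, edgeR adjusted p = 0.000311) and ULK1 (-0.53, edgeR adjusted p = 0.00056) were lower as well, as were AMBRA1 (-0.45), GABARAPL1 (-0.41) and ATG9A (-0.41), a lipid scramblase of the seed vesicles. ATG3 measured 51.8, 50.3 and 47.1 CPM in EVsub, above all EV libraries (log2 fold change 0.62 with SE 0.09, edgeR adjusted p = 2.29e-05). ATG12 (0.54, edgeR adjusted p = 0.000408), ATG4C (0.52), ATG5 (0.46), ATG16L1 (0.37) and RB1CC1 (0.69) were also higher, but the calls of ATG4C and RB1CC1 were each lost in 4 of 6 fits that left out a library and with total-count scaling. PIK3R4 (ENSG00000196455, chromosome 3, 130678934 to 130746829, minus strand), the widest ranging gene of its complex between groups, was 0.28 higher in EVsub, a call lost in 5 of 6 fits that left out a library.

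The GC content of transcripts moved with these differences. Across the 43 genes, whose transcripts held 34.7% to 65.7% GC, the Spearman correlation of GC content with the log2 fold change was -0.691 for EVsub against EV and 0.533 for TAZ4SA against EV, and over 19599 genes it was -0.435 and 0.274. It was -0.118 for YAP-TFE3 against EV. These correlations are across genes of shared libraries and are given as a description. When offsets for GC content were fitted per library, EVsub lost the higher calls of RB1CC1, PIK3R4, ATG4C, ATG5 and ATG12 and the lower calls of ULK3, ATG2A and ATG4B, and gained those of ATG101, ATG4D and SQSTM1 (higher) and PIK3C3 and CALCOCO2 (lower). YAP-TFE3 against EV lost the calls of ULK2 and ATG4B and gained ULK1 and WDR45 (higher) and PIK3R4, ATG4C and GABARAP (lower). TAZ4SA against EV lost ATG101, ATG3, ATG4B, ATG16L1 and RB1CC1, and gained PIK3C3, ATG4C, ATG12, OPTN, TAX1BP1 and VMP1 (higher) and AMBRA1, WIPI2 and ATG9A (lower), for 20 higher and 7 lower. The 6 largest YAP-TFE3 differences kept their calls.

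**Figure D3:**
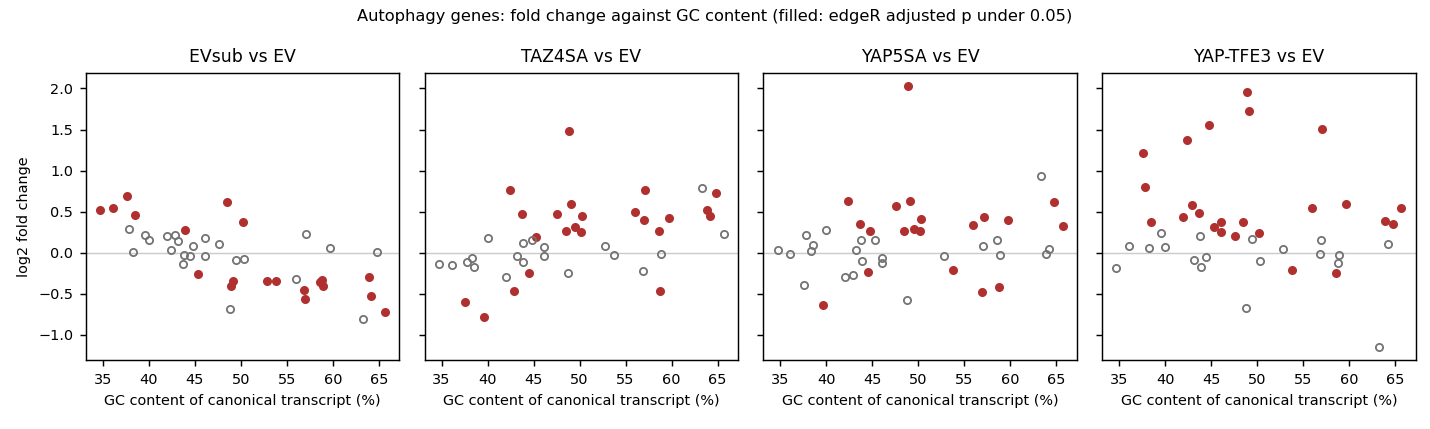
Log2 fold change against the GC content of the canonical transcript (percent) for the 43 genes in EVsub, TAZ4SA, YAP5SA and YAP-TFE3 against EV; each point is a gene, filled where the edgeR adjusted p was below 0.05. The points fall with GC content in EVsub (Spearman -0.691), rise with it in TAZ4SA (0.533) and show little slope in YAP-TFE3 (-0.118).

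The roles can be set side by side. The share called higher in YAP-TFE3 was 5 of 5 cargo receptors, 3 of 5 ATG8 genes, 5 of 10 other conjugation genes, 3 of 6 initiation genes, 3 of 7 membrane genes and 2 of 7 genes of the PI3-kinase complex. In YAP5SA it was 3 of 5 receptors, 3 of 5 ATG8 genes, 4 of 10 other conjugation genes, 2 of 6 initiation genes, 1 of 7 membrane genes and 1 of 7 PI3-kinase genes. Over all genes tested the shares higher were 25.6% in YAP-TFE3 and 22.7% in YAP5SA. The PI3-kinase genes were near or below these shares, and the membrane genes were below theirs in YAP5SA. With GC-content offsets 4 of 5 receptors were higher in YAP5SA and 5 of 5 in TAZ4SA, against 3 of 5 in TAZ4SA without them. With total-count scaling YAP5SA lost 9 higher calls, among them all 3 receptors (SQSTM1, OPTN and CALCOCO2), MAP1LC3A, ATG3 and ATG16L1. TAZ4SA lost 8, with NBR1 the only receptor, and YAP-TFE3 lost 6, with no receptor among them. The cargo receptors had the highest median in YAP-TFE3 (0.80), followed by the ATG8 family (0.54), with the other roles between 0.06 and 0.24, but with GC-content offsets both medians were 0.69. In TAZ4SA the membrane genes had the highest median (0.40), which fell to 0.25 with those offsets, level with the receptors (0.25) and below the maturation genes (0.35). Roles hold few genes each, and the difference between roles was not tested.

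**Figure D4:**
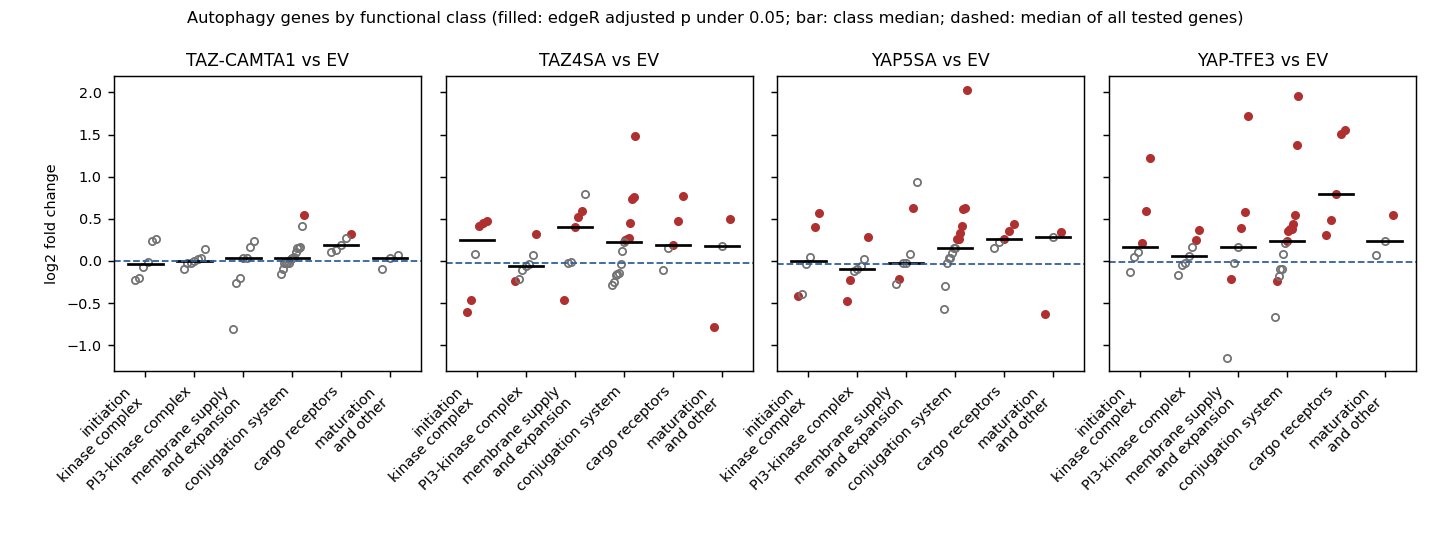
Log2 fold change of each gene by role in TAZ-CAMTA1, TAZ4SA, YAP5SA and YAP-TFE3 against EV; each point is a gene, filled where the edgeR adjusted p was below 0.05, bars mark the median of the role and the dashed line the median of all genes tested. In YAP-TFE3 the cargo receptors have the highest median, 0.80, and the PI3-kinase complex the lowest, 0.06.

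Genes around the machinery were read from lists of known function, whose counts stand against 25.6% of all genes higher and 22.6% lower in YAP-TFE3. Of 14 genes for fusion of autophagosomes with lysosomes, 9 were higher and 0 lower in YAP-TFE3 than in EV, led by VPS18, a subunit of the HOPS tether (log2 fold change 0.87 with SE 0.14, edgeR adjusted p = 1.01e-05), and PLEKHM1, an adaptor of that tether (0.84, edgeR adjusted p = 5.08e-05). Of 17 further receptors and adaptors of selective autophagy, 7 were higher and 0 lower, led by the endoplasmic reticulum receptors RETREG1 (log2 fold change 2.94 with SE 0.24, edgeR adjusted p = 5.49e-10) and CCPG1 (log2 fold change 1.69 with SE 0.34, edgeR adjusted p = 0.000202). Exons of CCPG1 overlap those of DNAAF4-CCPG1 on the same strand, and how reads there were assigned is not stated. Of 11 tested genes among 13 others that act in autophagosome formation, 6 were higher and 0 lower, with BCL2, an inhibitor of Beclin 1, at 1.41 (edgeR adjusted p = 5.97e-07) and NRBF2, a subunit of the Beclin 1 complex, at 0.94 (edgeR adjusted p = 1.1e-08). Of 19 genes of mTORC1 and AMPK signalling, 8 were higher (42.1%) and 5 lower (26.3%, near the share over all genes), with SESN2, a leucine sensor upstream of mTORC1, at 1.48 (edgeR adjusted p = 2.4e-05) and DEPTOR, an inhibitor of mTOR, at -0.80 (edgeR adjusted p = 0.000466). Of 7 autophagy genes known as targets of TFEB and TFE3, 5 of which are among the 43, 6 were higher in YAP-TFE3 with a median of 0.87, 4 in TAZ4SA with a median of 0.59, 3 in YAP5SA with a median of 0.44 and 0 in TFE3 with a median of 0.11. Over all genes the shares higher were 25.1% in TAZ4SA, 22.7% in YAP5SA and 0.035% in TFE3.

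In TAZ4SA the mTORC1 and AMPK list held 5 higher (26.3%) and 4 lower (21.1%) genes, against 25.1% and 24.2% of all genes, and in YAP5SA 3 higher (15.8%) and 4 lower (21.1%), against 22.7% and 21.6%. The largest falls were those of SESN3, a sestrin (-2.93 and -2.71), and DEPTOR (-2.39 and -2.51), while DDIT4, an inhibitor of mTORC1 induced by stress, rose (1.21 and 1.04). TBK1, the kinase that phosphorylates OPTN and SQSTM1, was lower in both (-1.08 and -0.80) and higher in YAP-TFE3 (0.82) and EVsub (1.12). In EVsub DEPTOR (-1.70) and SESN2 (-1.19) were lower, where 17.1% of all genes were called lower and 19.8% higher. Counts of the mTORC1 and AMPK list are not given for EVsub, so these values do not describe the list as a whole.

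Called in no comparison against a control were 6 of the 43 genes, PIK3C3, ATG9B, ATG10, GABARAP, GABARAPL2 and VMP1, a membrane protein of the endoplasmic reticulum that acts early in autophagosome growth. STX17 differed by 0.24 in YAP-TFE3 (edgeR adjusted p = 0.187). TP53INP2, which binds ATG8 proteins, was higher in TAZ4SA (0.50), YAP5SA (0.34) and YAP-TFE3 (0.54), with the YAP5SA call lost in 4 of 6 fits that left out a library and with total-count scaling.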

How the data were processed

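Polyadenylated RNA of SW872 lines was sequenced in paired-end reads, and the authors deposited 24 tables of raw counts per gene, 1 per library. Per the labels and the study's methods, reads were aligned to hg38 with Hisat2 within bcbio-nextgen, and were also pseudo-aligned with Salmon and summed to genes with tximport. The libraries came from a TruSeq stranded kit. Which route made the deposited whole-number counts, and with what strand setting, is not stated. The methods describe separate transductions for the triplicates. Libraries were grouped by their titles. The members, gene lists and tests were chosen with earlier results of these data known.

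Counts were tested in R 4.3.3 with edgeR 4.0.16 (quasi-likelihood F test, TMM scaling, all 24 libraries in 1 fit, 1 mean per group), for the 19997 of 60279 genes whose mean reached 5 counts, with p-values adjusted over all of them by the Benjamini-Hochberg method, and a gene was called at an adjusted p below 0.05. Log2 fold changes come from that fit, and CPM were scaled with TMM factors. Gene models, coordinates, lengths and GC content come from GENCODE 44 on GRCh38, and upstream sequences from RefSeq GRCh38.p14. Up to 6 called genes in each direction with a mean of at least 100 counts were named per comparison, ranked by fold change, and the other members are named to account for their role. Alternatives were DESeq2 1.42.0, other scalings and filters, fits of the compared groups alone, a replicate block, leaving out each library, and, added after the data were seen, offsets for GC content from a lowess curve with a span of 0.3. The scripts were tested on simulated counts. Library totals of 19700277 to 35287476 set the precision. The p-values rest on the spread between libraries within groups, estimated over all 24 libraries together and not from the 3 libraries of each compared group alone.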

Additional observations from a re-analysis of the deposited data

How the results depend on the processing

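Apart from fits that left out a library, which are given below, counts of called genes stayed within 1.5 times of those reported under the settings tried, with these exceptions. YAP-TFE3 against TFE3 had 14 calls (13 higher, 1 lower) in place of 22 when only the compared groups were fitted, and with GC-content offsets YAP-TFE3 against YAP5SA had 31 calls (22 higher, 9 lower) in place of 18 and TAZ-CAMTA1 against EV had 4 in place of 2. At the limit of 1.5 times stood YAP-TFE3 against EV, with 16 calls (15 higher, 1 lower) in place of 24 when only the compared groups were fitted. TAZ-CAMTA1 against EV also stood there. It had 3 calls in place of 2 with DESeq2, with only the compared groups fitted, and without the low-count filter (2 higher, 1 lower). The cause was not tested in any of these cases. Leaving out 1 library at a time gave 1 to 2 calls for TAZ-CAMTA1 against EV (1 without EV replicate 1 or TAZ-CAMTA1 replicate 2), 13 to 21 for YAP5SA (13 without EV replicate 1), 18 to 24 for TAZ4SA, 20 to 24 for YAP-TFE3 (24 without YAP-TFE3 replicate 3) and 15 to 21 for EVsub. It gave 21 to 24 for TAZ-CAMTA1 against TAZ4SA, 18 to 22 for YAP-TFE3 against YAP5SA, 18 to 22 for YAP-TFE3 against TFE3, and 0 for TFE3 against EV and CAMTA1 against EVsub. Of 155 called differences of single genes, 45 lost their call in at least 1 such fit. Direction turned in 4 cases. NBR1 in TAZ4SA became -0.01 (edgeR adjusted p = 0.962) with total-count scaling, and with GC-content offsets ATG2A in EVsub became 0.01 (adjusted p = 0.915), ATG4C in EVsub -0.09 (adjusted p = 0.595) and TAX1BP1 in TAZ-CAMTA1 against TAZ4SA -0.12 (adjusted p = 0.133). Apart from the turned cases, total-count scaling ended 40 calls, GC-content offsets 22, fits of the compared groups alone 25, no low-count filter 28, DESeq2 2 and its size factors 2.

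Replicate numbers were shared by the groups, but in no comparison did all 3 same-numbered pairs have deviations that correlated above 0.1. This cut cannot show whether same-numbered libraries share more than a number. With the replicate number as a block, the calls were 24 for YAP-TFE3, 24 for TAZ4SA, 21 for YAP5SA, 20 for EVsub and 2 for TAZ-CAMTA1 against EV, 26 for TAZ-CAMTA1 against TAZ4SA, 19 for YAP-TFE3 against YAP5SA and 21 for YAP-TFE3 against TFE3. Calls lost under the block were those of WIPI2 in YAP-TFE3 (edgeR adjusted p = 0.059) and YAP5SA (0.0531) and of RUBCN between YAP-TFE3 and TFE3 (0.0506). In YAP-TFE3 against EV, 6 of 6 libraries correlated best with their own number, a hint from the data and not the design. It was 5 of 6 in EVsub against EV and in TAZ-CAMTA1 against TAZ4SA. The other comparisons had 4 or fewer, down to 0 of 6 in YAP-TFE3 against TFE3. Depth limited ATG9B and GABARAP most, since these have the lowest counts among the 43 genes.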
